A study of Oryza sativa Indica Group with 24 samples.

Results

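In leaves of droughted rice, 56 complementary DNA clones had their largest difference between stressed and control plants on day 71 after germination, with a ratio of stress over control above the array's median at all 3 stress levels that day. They were selected on those ratios from 7296 clones, each spotted in duplicate on a 2-colour array. The choice ran over 21 arrays of days 45 to 71. Clones were ranked by the product of both channels, the 150 brightest were left out together with every clone dimmer than the median clone, and 3498 remained, here called the brightness range. Among these, 1337 had their largest absolute day mean on day 71. That mean was above 0 for 121 of them and below 0 for 1216, and 56 of the 121 were above 0 on each of the 3 arrays. Up to 100 clones were to be taken, so this limit never came into play and all 56 were kept. Because these values chose the clones, everything given for days 45 to 71 is a description and carries no test. Day 75 is the only day that the choice did not use.

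The plants were Oryza sativa Indica Group, cultivar Nagina 22, a rice known for tolerating drought, grown in field plots under a rain shelter. Every array set stressed plants against control plants of the same age. The stressed plots were irrigated to 60% (mild), 40% (moderate) or 15% (severe) of field capacity, the water a soil holds after draining, and the control plots to 100%. The series has 24 arrays, 1 for each level on each of 8 days, labelled with 7, 14, 17, 21, 25, 29, 33 and 37 days of stress on days 45, 52, 55, 59, 63, 67, 71 and 75. Days 45 and 52 are vegetative, day 55 is before anthesis, day 59 has no stage in the labels, and days 63 to 75 are after anthesis, when seeds set. A sample was pooled leaves of 1 plot, so no array has a replicate from a second plot. Each level kept 1 plot code over the days, and all arrays carried stress and control in the same dyes, so a constant dye bias stays in each ratio. The tissue label is leaves, while the source name of the stressed samples says rice seedlings at all days. The protocol for RNA extraction also names panicles. Whether the RNA is leaf RNA could not be checked against marker genes, since the clones carry no gene names here.

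During grain filling a rice leaf exports its nitrogen and sugars to the seeds and then senesces. Drought at that stage speeds senescence and, through the hormone abscisic acid, is known to raise transcripts for dehydrins and other late embryogenesis abundant proteins, for enzymes that make protective sugars and amino acids, and for detoxification of reactive oxygen. The array's clones are known by plate and well only. None of the 7296 clone names was found among the 39387 genes of the RefSeq table, so no role, gene family or sequence can be attached to any of the 56 clones. They are described by their clone sets, plates, places on the array and values.

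Ratios are log2 values of stress over control, less the median of all clones on the array, so 0 is the typical clone of that array and 1 is a 2-fold higher ratio. They are means of duplicate spots. Before centring, the median clone was brighter in stress than in control on day 71, by a log2 ratio of 0.95 on the mild, 1.08 on the moderate and 1.70 on the severe array. A ratio of 0 after centring thus says nothing about the absolute change. The severe array of day 71 had the widest spread, with an SD of 2.02 over all clones, against 1.19 on the mild and 0.76 on the moderate array of that day. The moderate arrays of days 52 and 55 go against their labels in the authors' deposited value table. Its day 52 column correlated at 0.93 with the scanner file of day 55 and at 0.02 with that of day 52, and its day 55 column correlated at 0.88 with the file of day 52, over 6480 clones and after centring each clone over the days of the level. With the 2 files exchanged the rule gave 49 clones, of which 48 were among the 56. That is 85.7% of the 56 and 98.0% of the 49.

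On day 71 the members' ratios had a median of 0.53 on the mild array, with a range from 0.03 to 1.99. On the moderate array the median was 0.16 and the range 0.01 to 0.90. On the severe array the median was 0.83 and the range 0.08 to 2.33. All clones of the brightness range had medians of -0.34, -0.20 and -0.96 on the mild, moderate and severe arrays, so the members stood on the other side of the array median from most clones of that range. Of those 3498 clones, 162 or 4.63% were above 0 at all 3 levels, which is a part of what the rule asked for. Among these, 106 had a larger absolute day mean on another day and were not members. The mean of the 3 levels ran from 0.24 to 1.00 in the members, with a median of 0.59. No member reached a 2-fold higher ratio at all 3 levels, and 31 reached it at 1 level or more. On the mild array 13 members were at or past 2-fold, where 10.9% of all clones were. On the moderate array no member was, where 8.87% of all clones were, and on the severe array 18 were, where 25.1% of all clones were. These values depend on the normalization. With a loess fit in each print block the members' medians were 0.20 at mild and 0.33 at severe stress, and with a loess fit over the array the severe median was 0.54. The same rule applied to array-wide loess ratios kept 18 of the 56 members in a list of 100, and without the severe array of day 71 it kept 27 in a list of 100.

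**Figure D1:**
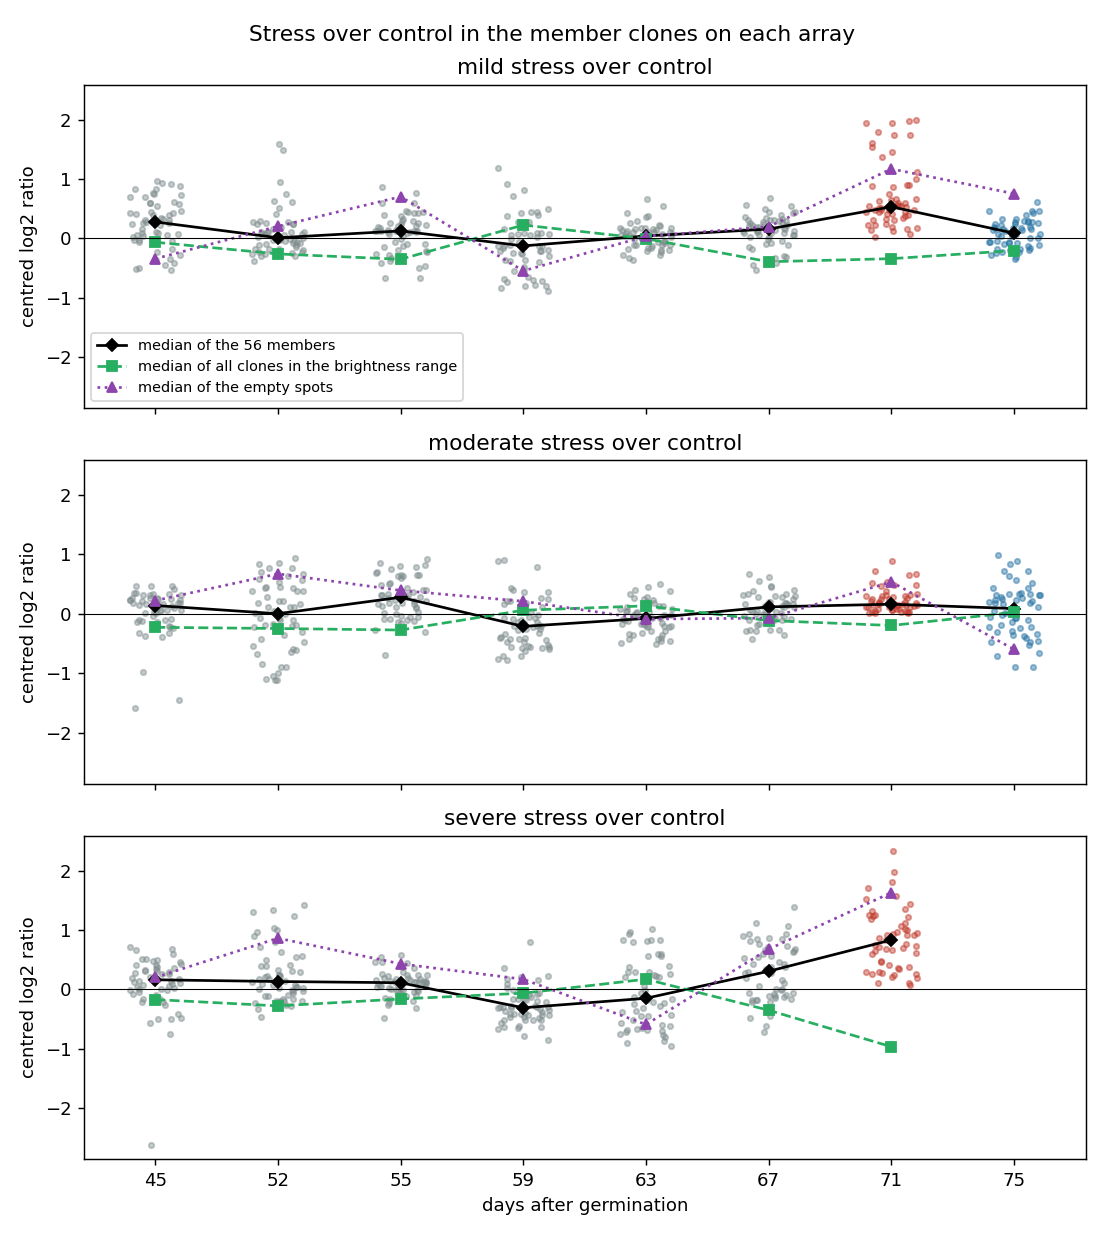
Centred log2 ratios of stress over control (vertical axes) by day after germination (horizontal axis), with 1 panel per stress level; points are the 56 member clones, in red on day 71 and in blue on day 75, and lines join medians of the members, of all clones in the brightness range and of the empty spots. On day 71 the members' medians were 0.53, 0.16 and 0.83 on the mild, moderate and severe arrays, between the empty spots above them and the clones of the brightness range below; severe stress on day 75 is not plotted.

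The order of the levels on day 71 was not the order of the water deficit. The severe array gave the highest ratio for 36 members, the mild array for 20 and the moderate array for none. The moderate array gave the lowest ratio for 40 members. Only 11 members increased from mild through moderate to severe, and 25 had the order severe, mild, moderate.

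Clone NL11_F02 headed the list by its lowest value on day 71. Its ratios were 1.45 on the mild, 0.90 on the moderate and 0.67 on the severe array. Its stress signal was 2586, 6766 and 3419 scanner units on those arrays, against a control signal of 491, 1722 and 659 units. Relative to the median clone of each array, its stress signal was 0.84, 2.44 and 1.64 times, against 0.27, 1.19 and 0.97 times in control. At mild stress, where its centred ratio was the highest, both channels were under the median clone.

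Clone NL41_B12 was second, with nearly equal ratios of 0.66, 0.67 and 0.74 at mild, moderate and severe stress. NL11_C02, from the same plate as NL11_F02, had ratios of 1.61, 0.51 and 0.60. NL14_B04 had 1.01, 0.49 and 0.61. In both of these, as in NL11_F02, the mild array stood above the other 2 on the centred ratios. With a loess fit over the array the severe array was highest in each of them, at 1.80 in NL11_F02, 1.47 in NL11_C02 and 2.16 in NL14_B04. Their mild values under that fit were 1.12, 0.83 and 1.27. NL16_H03 was at 0.50, 0.46 and 0.48, a narrower span than in any other member. The members ranked 6 to 10, NL49_E10, NL17_A08, NL37_F12, NL47_C10 and NL7_A04, had lowest values between 0.30 and 0.42, and the widest span among them was in NL47_C10, at 0.31 on the mild, 0.49 on the moderate and 1.97 on the severe array.

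Members differed most between levels where 1 array alone was high. NL44_F01 had ratios of 0.12 and 0.16 on the mild and moderate arrays and 2.33 on the severe array. On that array its stress signal was 1734 units, close to the empty spots' 1696, and its control signal was 106 units, under their 167, so neither channel was above background and the ratio gives no fold change. NL11_A06 was high at mild stress alone, at 1.97, with 0.03 and 0.10 at moderate and severe stress. NL7_D10 did the same, at 1.99, with 0.18 and 0.26. Their control signals on the mild array were 274 and 249 units, below the empty spots' median of 304 units.

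The threshold of the rule lay at 0 on day 71. Just inside it the lowest values were 0.03 for NL48_F05, 0.03 for NL47_B05, 0.01 for NL53_B02, 0.01 for NL_10_18 and 0.01 for NL50_H09. Just outside it were NL41_F11 at -0.0021, NL50_B03 at -0.0027, NL_6_49 at -0.01, NL_6_51 at -0.03 and NL_8_40 at -0.03. NL50_B03 was at 2.15 on the severe array. In all 5 of the clones outside, the moderate array kept them out. The members' duplicate spots on that array differed by a median of 0.15, so the edge of the list falls within the duplicate error. In 40 of the 56 members all 6 spots of day 71 were above 0.

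Duplicate spots disagreed most in NL47_G02, with 0.02 and 1.70 on the severe array. NL51_G04 had 0.80 and 2.25 there, and NL37_E12 had 1.47 and 0.23. The gap passed 1 in 4 members, and the median over members of the largest gap on day 71 was 0.32. Across the 56 members, duplicate ratios correlated at 0.96 on the mild, 0.63 on the moderate and 0.58 on the severe array, so the severe values are the least repeatable within an array.

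The label under which these clones were grouped, induced on day 71, was set against the signals in each channel. The members' median stress signal was 2549 units on the mild array, 0.83 times that of all clones. It was 2959 units and 1.07 times on the moderate array, and 2197 units and 1.06 times on the severe array. Their median control signal was 955 units and 0.52 times that of all clones on the mild array, 1268 units and 0.87 times on the moderate array, and 382 units and 0.56 times on the severe array. So the high ratios went with a stress signal near that of the typical clone and a control signal under it. In the mean of the 3 levels, the stress signal relative to all clones was 0.93, 1.44, 1.54, 1.21, 1.03, 1.00 and 0.98 on days 45, 52, 55, 59, 63, 67 and 71, and the control signal was 0.77, 1.37, 1.24, 1.18, 0.98, 0.89 and 0.65. Day 71 had the lowest control signal of the 7 days, while 1 day, day 45, had a lower stress signal. The choice asked for high ratios on day 71, which itself favours a low control signal or a high stress signal that day. More RNA of these genes under stress and less in the control plants of that day cannot be told apart in a ratio.

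**Figure D2:**
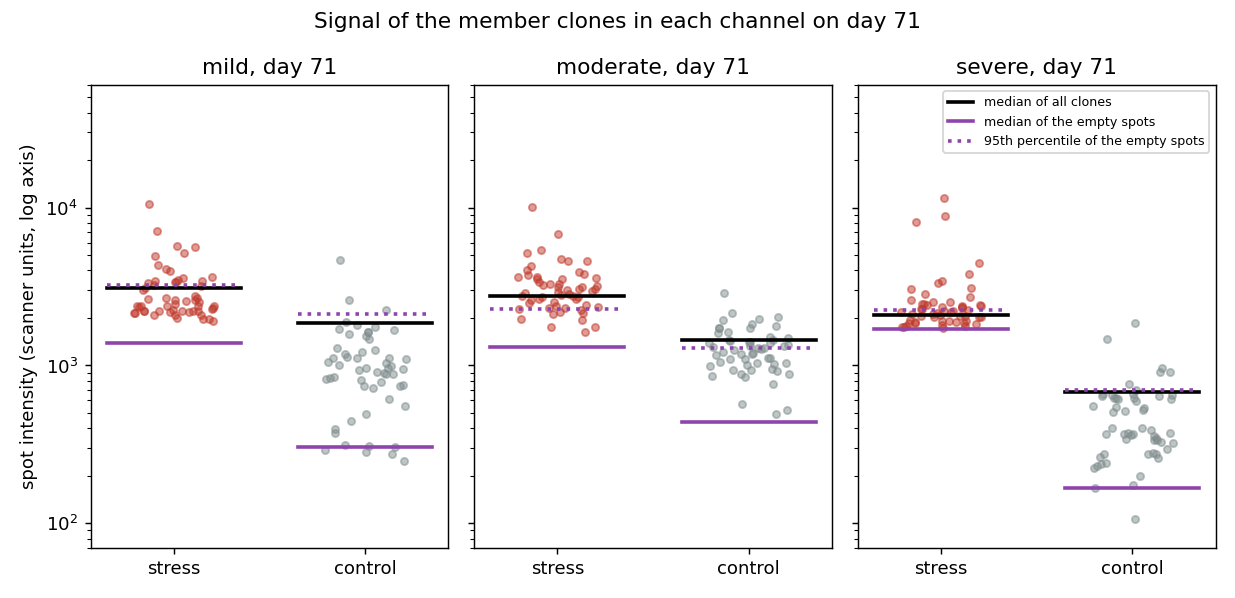
Spot intensity in scanner units (vertical log axis) of the 56 member clones on day 71 in the stress and control channels of the mild, moderate and severe arrays, with each point the mean of duplicate spots. Black lines mark the median of all clones, purple lines the median and dotted purple lines the 95th percentile of 816 spots without a clone; in the control channel 3, 27 and 6 members lay above the dotted line, and in the stress channel 17, 46 and 25.

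Many members were close to the signal of spots without a clone. In the stress channel, 17 members on the mild, 46 on the moderate and 25 on the severe array were brighter than 95% of the 816 empty spots. The counts in the control channel were 3, 27 and 6. Of all clones in the brightness range, 76.5%, 91.2% and 63.9% passed in the stress channel, and 79.7%, 88.3% and 82.8% in the control channel. The empty spots themselves had ratios with a median of 1.17 on the mild, 0.54 on the moderate and 1.63 on the severe array, on the same centred scale, above the members' medians on all 3. In 11, 5 and 4 members the ratio was above that of the median empty spot. The array's own control spots went both ways. The 12 with nYIR in their names had median ratios of 0.66, 0.34 and 0.80, the 18 with uYIR 0.65, -0.25 and 0.22, and the 48 with rYIR 0.07, -0.26 and -0.16. The 60 with cYIR were at -0.20, -0.52 and -0.36, and the 6 with Lambda at -0.37, -0.40 and -1.21. The part of a dim spot's own floor in the members' ratios was not tested. After subtraction of the local background, 55, 50 and 56 members kept a ratio above 0 on the mild, moderate and severe arrays. On all 3 arrays 49 members did. Of the 3498 clones in the brightness range, 888, 1036 and 641 were above 0. The members were chosen for ratios above 0 on these same arrays, so their counts say nothing about the floor.

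The members lay at the dim end of their range. Their median brightness rank was 3342 counted from the brightest, 54 of the 56 were in the dimmer part beyond rank 1900, and 44 were beyond rank 3000. That is 78.6% of the members, against 18.5% of all clones in the range. The other 604 clones beyond rank 3000 had medians of -0.07, -0.05 and -0.07 on the mild, moderate and severe arrays of day 71. The 2 brightest members were NL45_D04 at rank 1532 and NL19_B08 at rank 1638.

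A set of 12 members cleared the empty spots in the stress channel on all 3 arrays of day 71. They were NL14_B04, NL16_H03, NL47_C10, NL6_H02, NL19_B08, NL14_A04, NL45_D04, NL10_D12, NL47_G02, NL43_H11, NL18_C08 and NL45_C10, singled out after their values were seen and by the channel that is the numerator of the ratio. Their median ratios were 0.49, 0.29 and 0.81 at mild, moderate and severe stress, and those of the other 44 members were 0.54, 0.15 and 0.83. After background correction and a loess fit to brightness, which takes out a shift that depends on how bright a spot is, the 12 were at 0.86, 0.54 and 1.50, and the other 44 at 0.36, 0.23 and 0.43. All 12 were above 0 at all 3 levels under that normalization, and 30 of the 44 and 27.1% of all clones in the range were. With a loess fit in each print block, all 12, 18 of the 44 and 25.6% of all clones in the range were. Picking the 12 by a bright stress channel favours high ratios, so their difference from the other 44 supports nothing further.

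Among these 12, NL45_D04 was brighter than 95% of the empty spots in both channels of each array. Its stress signal was 10529, 10082 and 8163 units at mild, moderate and severe stress, against a control signal of 4678, 2884 and 1482 units. Relative to the median clone of each array, its stress signal was 3.41, 3.63 and 3.92 times, against 2.53, 1.99 and 2.17 times in control. Its ratios of 0.22, 0.73 and 0.76 followed the order of the water deficit. NL19_B08 had 5704, 4716 and 11501 units in stress, against 1624, 1841 and 1853 units in control, with ratios of 0.86, 0.28 and 0.93. Arrays differ in scale, and relative to the median clone of each array its stress signal was 1.85, 1.70 and 5.53 times, against 0.88, 1.27 and 2.71 times in control. Both channels of NL19_B08 thus stood highest on the severe array.

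The members were unevenly placed on the array, which has 12 print rows by 4 print columns in 48 blocks. They came from 15 of the 48 blocks. Print row 1 held 20 of them, all in columns 3 and 4, and row 2 held 2. Rows 5, 6, 7 and 8 held 4, 12, 13 and 5. Rows 3, 4 and 9 to 12 held none, although 585 clones of the brightness range lay in rows 3 and 4 and 800 in rows 9 to 12. Column 4 held 32 of the 56 members, 57.1%, against 30.9% of the clones in the range.

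Place and level went together. The 22 members of rows 1 and 2 had medians of 1.24 on the mild, 0.21 on the moderate and 0.33 on the severe array of day 71, and the mild array was highest in 19 of them. The 34 members of rows 5 to 8 had medians of 0.43, 0.16 and 0.96, and the severe array was highest in 33 of them. All 13 members at or past 2-fold on the mild array were in rows 1 and 2, and 16 of the 18 at or past it on the severe array were in rows 5 to 8. On these centred ratios the list thus held 2 sets. Members of the top rows were high at mild stress and those of the middle rows at severe stress. Of the 56 members, only 3 on the mild and 6 on the severe array had a control signal brighter than 95% of the empty spots. Most of the ratios at or past 2-fold thus rest on a control signal within that of the empty spots and give no firm fold change. All clones of the brightness range also differed by place. In rows 1 and 2 their medians were 0.10 at mild and -1.17 at severe stress, and in rows 5 to 8 -0.33 and -0.65. The order of levels depended on the normalization. With array-wide loess the severe array became highest in several members of rows 1 and 2 that the mild array had led. NL14_B04 was then at 1.27, 0.68 and 2.16 at mild, moderate and severe stress. NL11_F02 was at 1.12, 1.21 and 1.80, NL11_C02 at 0.83, 0.75 and 1.47, and NL17_A08 at 1.03, 0.30 and 1.73. NL7_A04 stayed highest at mild stress, at 1.17, 0.45 and 0.29, as did NL7_D10, at 1.03, 0.31 and 0.60. The split into 2 sets is thus a trait of the centred ratios, and how many members kept it under loess was not counted.

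**Figure D3:**
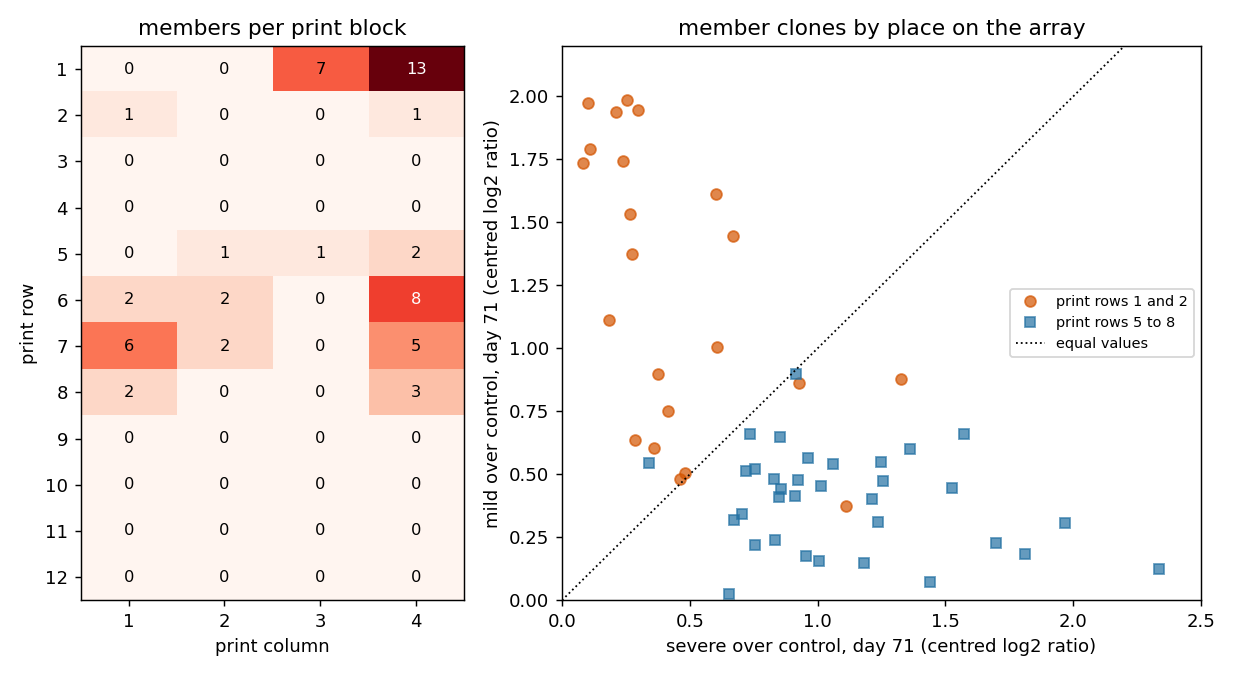
Left, the number of member clones in each of the 48 print blocks (print row by print column). Right, the ratio of mild over control against that of severe over control on day 71 (centred log2), each point a member: 19 of the 22 clones of rows 1 and 2 were highest on the mild array and 33 of the 34 clones of rows 5 to 8 on the severe array.

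The block at row 1, column 4, held 13 members among 100 clones of the range. On the mild array of day 71 these 100 clones had a median of 0.79, the highest of the 48 blocks, where the clones of the whole range were at -0.34. The 13 members there had medians of 1.74, 0.16 and 0.26 at mild, moderate and severe stress, and the 87 others of that block 0.56, -0.05 and -1.13. Their neighbours were thus raised at mild stress too, but not at severe stress. These neighbours were also brighter, with a median brightness rank of 1785, against 3226 in the 13 members. How far brightness enters the difference at severe stress was not tested. At row 7, column 1, which held 6 members, the clones of the range had a median of -0.08 on the severe array, against -0.96 over the whole range. At row 6, column 4, which held 8 members, that median was -0.41. The highest block median on the severe array, 0.01, was at row 5, column 1, which held no member. What a local shift of the slide adds to the members' values was not tested apart from the print-block fit, after which 30 of the 56 were above 0 at all 3 levels of day 71. Of all clones in the range, 25.6% were above 0 at all 3 levels after that fit.

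By name, 52 members were of the clone set NL, 4 of the set NL_ and none of the set MK. Those sets made up 67.3%, 25.6% and 7.18% of the clones in the range. The 56 members came from 26 plates of the 76 in the range. Plate NL47 gave 6 members, plates NL11, NL45 and NL7 gave 5 each, and NL14 gave 4, which is 25 members from 5 plates, and 12 plates gave 1 each. The members from NL7, NL11 and NL14 all lay in print row 1, those from NL45 in row 6 and those from NL47 in row 7, so plate and place on the array cannot be told apart. Whether clones of a plate are copies of the same transcript was not analysed here.

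Before day 71 the members were near the array median. The mean of the 3 levels over members had medians of 0.14, 0.13, 0.19, -0.27, -0.02 and 0.20 on days 45, 52, 55, 59, 63 and 67. All clones of the brightness range had medians of -0.16, -0.25, -0.23, 0.09, 0.10 and -0.23 on the same days. On each of these days the members' median had the opposite sign to the range's, as on day 71. The empty spots had medians of -0.34, 0.22 and 0.20 on the mild, moderate and severe arrays of day 45, and of 0.20, -0.07 and 0.68 on those of day 67.

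On day 67, the sampling before day 71, 42 of 56 members had a day mean above 0, against 22.4% of the clones in the range. At all 3 levels 23 members were above 0, against 6.49% of the range. Day 59 went the other way, with 17 members above 0 in the day mean, against 55.7% of the range. At all 3 levels 23 members were below 0, against 27.3% of the range. The next largest absolute day mean fell on day 59 in 20 members, 17 of them below 0, and on day 67 in 11 members, all above 0. The mean of day 71 exceeded the size of the next largest by a median of 0.17, and by as little as 0.0037 and as much as 0.77. For a typical member day 71 was thus a modest maximum.

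Over the 18 arrays of days 45 to 67, the mean ratio of a member ran from -0.13 to 0.31 with a median of 0.05. It was above 0 in 43 members. All clones of the brightness range had a median of -0.13 for that mean. The median SD of a member over these arrays was 0.39. NL14_A04 had the highest mean, 0.31, and was above 0 on 17 of 18 arrays. Its mild ratios on days 45 to 67 were 0.69, 0.11, 0.26, 0.72, 0.15 and 0.12, and on day 71 it was at 0.48, 0.26 and 0.46 at mild, moderate and severe stress, so day 71 was little apart from its other days. NL7_E10 and NL7_A04, both of plate NL7 and row 1, had means of 0.25 each. At the other end, NL47_H03 had a mean of -0.13 with 5 of 18 arrays above 0, NL48_F05 a mean of -0.12 with 5 of 18 and NL_10_18 a mean of -0.10 with 10 of 18. Of these 3, NL_10_18 was at 0.47, 0.01 and 1.26 on day 71.

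As a description, ratios of members correlated weakly with each other over these 18 arrays. The median Pearson correlation over the 1540 pairs of members was 0.12, and it was 0.11 over all pairs of clones in the range. Within the 20 members of row 1 it was 0.34, against 0.28 among the 187 clones of the range in the same 2 blocks. Within the 34 members of rows 5 to 8 it was 0.23, against 0.14 among 1480 clones of those rows. Between the 2 sets of members the median was -0.04. The members share arrays, printing and brightness, which enter all of these values.

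Day 75 was tested, as the day that the choice left aside. Its mild and moderate arrays were compared with control by limma on ratios corrected by normexp and loess. The spread came from 20 arrays of all days but day 71. Of these, the 18 arrays of days 45 to 67 took part in choosing the members. The members' standard errors and intervals are therefore not wholly independent of the choice. A p-value here measures the spread between arrays of different stress levels, not between plots. Over all 7296 clones, 66 passed an adjusted p of 0.05 (Benjamini-Hochberg), of which 2 were higher under stress, 0.0274%, and 64 lower, 0.877%. With print-tip loess 10 were higher and 24 lower, and from the day 75 arrays alone 55 were higher and 218 lower. The total was 0 without the mild array of day 75, 8 without the moderate array and 0 with day 71 in the fit. None of the 56 members passed in either direction, in this fit or in those. The smallest adjusted p among them was 0.603. At an unadjusted p of 0.05, limma called 8.36% of all clones and none of the members. Under the other fits between 0 and 6 members had an unadjusted p under 0.05, the 6 with print-tip loess, where 714 of 7296 clones did.

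The members' log2 ratios on day 75 ran from -0.42 to 0.52 with a median of 0.13, and 35 of 56 were above 0. All clones had a median of 0.01, with 50.6% above 0. The median standard error of a member was 0.30, so a shift of the size of the members' median on day 75 was not detectable in a single clone. The upper end of the 95% confidence interval was under 1, a 2-fold higher ratio, in 47 members, and it ran from 0.13 to 1.24. On the centred ratios that the choice was made with, the members had medians of 0.09 on the mild and 0.09 on the moderate array, with 36 and 32 above 0. Of the 3498 clones in the brightness range, 1033 and 1864 were above 0 on those arrays, with medians of -0.20 and 0.02. The empty spots were at 0.75 and -0.60 on those arrays.

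The 2 arrays of day 75 did not order the members alike. Across the 56 members, mild and moderate ratios correlated at -0.25, and at 0.14 across all clones, which share each array's printing and depth. Both ratios were above 0 in 19 members, where 26.3% of all clones had both above 0, both were below 0 in 7, and the signs differed in 30.

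**Figure D4:**
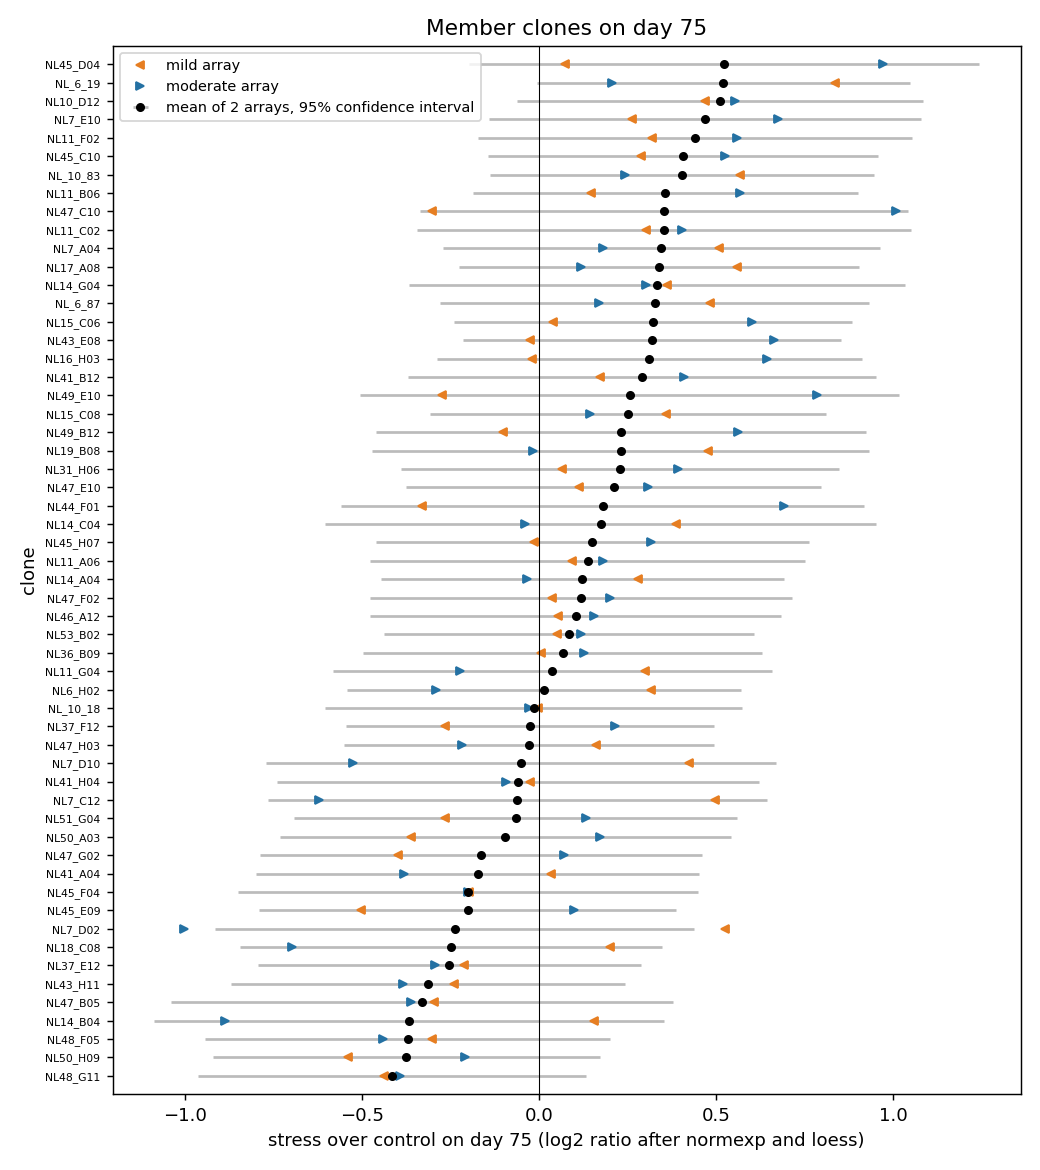
Log2 ratio of stress over control on day 75 after normexp and loess (horizontal axis) for each of the 56 member clones (vertical axis, in order), with the mild array, the moderate array and their mean with its 95% confidence interval from limma. All 56 intervals include 0, and 47 end below 1.

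The highest members on day 75 were NL45_D04, NL_6_19, NL10_D12, NL7_E10 and NL11_F02. NL45_D04 had 0.07 on the mild and 0.97 on the moderate array, with a mean of 0.52 ± 0.35 (SE, limma, adjusted p = 0.781). NL_6_19 had 0.84 and 0.21, with a mean of 0.52 ± 0.26 (SE, limma, adjusted p = 0.603). NL10_D12 had 0.47 and 0.55, and the 2 levels were closest in it among these 5. NL7_E10 averaged 0.47 and NL11_F02 averaged 0.44. NL11_F02, which led on day 71, was above 0 on both arrays of day 75, at 0.32 and 0.56, with an interval from -0.17 to 1.05.

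The lowest members on day 75 were NL48_G11, NL50_H09, NL48_F05, NL14_B04 and NL47_B05. NL48_G11 had -0.44 on the mild and -0.39 on the moderate array, with a mean of -0.42 ± 0.27 (SE, limma, adjusted p = 0.768). NL50_H09 was at -0.54 and -0.21 and NL48_F05 at -0.30 and -0.44. NL14_B04, which ranked 4 in the list on day 71, had 0.15 and -0.89, and NL47_B05 had -0.30 and -0.36. Of these 5 clones, 3 were at the lower edge of the list on day 71, NL50_H09, NL48_F05 and NL47_B05.

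The authors' deposited value table adds a column for severe stress on day 75. Its log2 values were centred for each clone over the 8 days of a level, the mean over days lying within 0.0025 of 0, so they hold differences between days and no level against control. In that table the members' median at severe stress was 0.63 on day 71 and -0.44 on day 75, and 44 of 56 were lower on day 75. The median difference of day 75 from day 71 in the authors' deposited table was -1.13 at severe, -0.03 at moderate and -0.56 at mild stress, and over all clones 0.08, 0.10 and -0.11. A lower value after the day a clone was chosen for is in part fixed by the choice. By place, in the authors' deposited table, all 22 members of rows 1 and 2 were below 0 at severe stress on day 75, from -2.20 to -0.17, while 19 of the 34 in rows 5 to 8 were above 0, between -1.20 and 1.24. Of all clones of the brightness range in the same rows, 52.4% of 633 in rows 1 and 2 were below 0 and 85.7% of 1480 in rows 5 to 8 were above 0 in that column. The centring puts the severe values of days 45 to 71, which the choice used, into each value of day 75, so these counts are a description and no independent support.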

How the data were processed

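The authors deposited QuantArray output for 21 arrays, which, per the file headers, gives each spot's raw linear intensity and its local background in both channels. For the mild and moderate arrays of day 75 they deposited shorter tables of intensity with a log2 value beside it. The deposited value table holds log2 ratios centred per clone. Intensities still contained the background, and those of the mild array of day 45 are on a higher scale, which the ratio removes. Each array has 15552 spots: 14592 clone spots, 816 empty spots and 144 control spots. The software that made the deposited ratios is not given beyond the headers in the sources used here.

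For the choice, log2 ratios of channel 2 (stress) over channel 1 (control) were centred on the median of clone spots and averaged over duplicates. For the test of day 75, limma 3.58.1 in R 4.3.3 was used: normexp with offset 50, loess per array with span 0.3, lmFit with day as a factor, eBayes, and Benjamini-Hochberg adjustment over all 7296 clones at 0.05. The fit was tested on simulated data. With 2 arrays on day 75, their number limits the precision. Named clones are the 10 highest on day 71 by the lowest of 3 levels, 5 on each side of the threshold, 5 highest and lowest on day 75, 3 highest and lowest over days 45 to 67, and the 3 with the largest gap between levels and between duplicates. The members, lists and tests were chosen with earlier results of these data known. Alternatives covered background, normalization, brightness and arrays left out. Samples were grouped by the stress level and day in the labels.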

Additional observations from a re-analysis of the deposited data

How the results depend on the processing

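No member was called on day 75 in any of the 12 other fits run, 1 of which held only the 13 members brighter than the empty spots. The number of clones called over the whole array was 66, and 34 with print-tip loess (10 higher, 24 lower), 273 from the day 75 arrays alone (55 higher, 218 lower) and 0 with day 71 in the fit (smallest adjusted p 0.106, 523 clones at an unadjusted p of 0.05 by limma). It was between 0 (without the mild array, 285 clones unadjusted) and 8 (without the moderate array) with 1 array of day 75 left out, where the lone array is assumed to vary like the others. The members' median of 0.13 on day 75 was 0.0698 with print-tip loess and 0.015 in the deposited log2 values of the day 75 tables, which are centred per clone; with 1 array left out it was between 0.0685 and 0.148. Other fits kept it between 0.10 and 0.18. On day 71 the members' median at mild stress was 0.20 with print-tip loess in place of 0.53. At moderate stress it was 0.27 with loess in place of 0.16. At severe stress it was 0.54 with loess and 0.33 with print-tip loess in place of 0.83. The deposited value table gave 0.63 at severe stress, but it is centred per clone over the days, so that value is another quantity. The cause of the other shifts was not tested. The choice itself depends on the normalization. The same rule on loess ratios kept 18 of the 56 in its 100 clones, on print-tip loess ratios 5, and without the limit on brightness 0, where 1696 clones qualified. Leaving out the severe array of day 71, an alternative chosen after seeing the data, kept 27, and the rule then gave 100 clones of 115 that qualified. The other alternatives chosen after seeing the data were exchanging the moderate files (48 of 56 kept), ranking single spots (56), dropping spots marked to be ignored (56), subtracting local background (48) and, for the test of day 75, raw centred ratios (57 clones called) and the stress level, which shares a plot code over days, as a block (61 clones called as a fixed and 64 as a random block, none of them members; consensus correlation within a level -0.04). Of 113 values of the 10 clones named for day 75 under these fits, 2 changed sign: NL47_B05 was at 0.0648 with print-tip loess, and NL14_B04, at -0.37 in the mean of both arrays, was at 0.15 without the moderate and -0.89 without the mild array. Beyond the block by level, no paired analysis was possible because each level and day has 1 array and so 1 replicate number.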
